A study of Homo sapiens with 4 samples.

Results

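The interleukin 6 family was described in 4 RNA-seq libraries of IMR90, a line of human lung fibroblasts, through 10 genes chosen by symbol: the ligands IL6, LIF, IL11 and CLCF1, the receptors IL6R, IL6ST, LIFR and OSMR, the transcription factor STAT3 and the inhibitor SOCS3. These 10 genes stand on 11 of the 26468 loci in the deposited files, because IL6 has 2 lines, and on no locus that joins several genes. The oncogene-induced senescence (OIS) cells carried a retroviral ER:RasV12 fusion that was switched on with 10 nM tamoxifen for 8 days. The H3.3cs1 cells expressed a Flag-tagged, proteolytically cleaved form of histone H3.3 from a retrovirus and were taken at day 13 (late) or day 3 (early) after infection. The growing cells carried the empty pBabe vector for 13 days, and all cells were at passage 16. Each group has 1 library, so no test was possible, no error can be given, and every difference describes these libraries only. All 3 comparisons with growing cells share that 1 library. OIS also differed from growing in its construct and the tamoxifen, its days in culture are not given beyond the 8 of tamoxifen, and H3.3cs1 early differed from growing in time since infection; the parts these play cannot be told apart.

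Cytokines of this family signal through a shared receptor chain, gp130, which is encoded by IL6ST. IL-6 and IL-11 first bind their own receptors, IL6R and IL11RA, while LIF recruits LIFR and oncostatin M recruits OSMR or LIFR, each paired with gp130. Janus kinases bound to these chains phosphorylate STAT3, and SOCS3, itself a STAT3 target, binds gp130 and the kinases and shuts the signal off. IL-6 is one of the best known secreted factors of senescent fibroblasts.

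Levels are in FPKM, a count of RNA fragments scaled to transcript length and library size. Because they are per length, levels of different genes are set side by side. Other differences in how well each gene is measured were not checked, so ratios between genes are rough. Differences are given as log2(FPKM + 1), folds are on that scale and understate the change of low genes, and "rose" and "fell" are used of genes that differed by at least 2-fold. The background was the 12183 named genes with at least 1 FPKM in at least 1 library, and all 10 members reached that level in every library. HRAS stood at 3153 FPKM in OIS and between 41.9 and 49.8 FPKM in the other libraries. OIS is the group with the RAS construct. H3F3B, a gene for histone H3.3, stood at 450 FPKM in H3.3cs1 late, 229 in H3.3cs1 early, 105 in growing and 90.5 in OIS. The part of this in differences between H3.3cs1 early and late was not tested. Depth estimated from the lowest values was between 78.9% and 95.9% of that of the growing library, which is a rough figure. After the named loci of each library were rescaled to the same sum, the median difference of all genes moved to -0.16, against 0.03 as deposited, for OIS minus growing, and to 0.19, against -0.02, for H3.3cs1 early minus growing. In bulk RNA, fewer cells that express a gene and less RNA per cell cannot be told apart.

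The ligands carried the largest differences of the family, and these were in OIS. IL11, LIF and IL6 rose there by 25-fold or more, at ranks 29, 46 and 31 of 12183 from the top. In that comparison 9.13% of all compared genes rose by 2-fold or more, while CLCF1 stayed under 2-fold. In H3.3cs1 cells no ligand came near those levels: at day 3 all 4 were below growing, and at day 13 only IL6 was above it. The summed level of the 4 ligands was 1976 FPKM in OIS, 51.3 in H3.3cs1 late, 30.2 in H3.3cs1 early and 62.6 in growing.

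**Figure D1:**
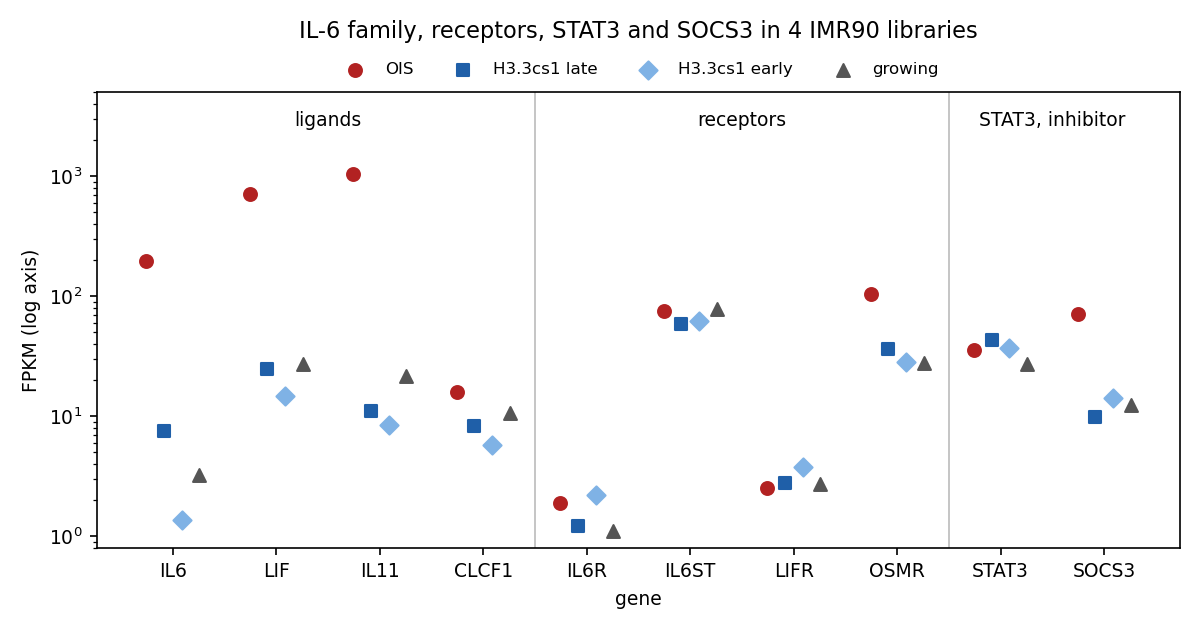
FPKM (log axis) of the 10 genes, 1 point per library: OIS, H3.3cs1 late, H3.3cs1 early and growing. IL6, LIF, IL11, OSMR and SOCS3 stand apart in OIS, where IL11 reached 1055 FPKM, while the 4 points of IL6ST lie between 58.3 and 78.6 FPKM.

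IL11, a cytokine of fibroblasts and other stromal cells, was at 1055 FPKM in OIS, 11.0 in H3.3cs1 late, 8.43 in H3.3cs1 early and 21.6 in growing. OIS was high and both H3.3cs1 libraries lay below growing. IL11 rose 46.7-fold in OIS over growing (log2 difference 5.55), rank 29 of 12183 from the top. Its level there was rank 63 of all compared genes, against rank 3317 in growing. In H3.3cs1 early IL11 fell 2.40-fold against growing (log2 difference -1.26), and in H3.3cs1 late it was 1.89-fold lower, short of the threshold. Between both senescence models the gap was wider still, with IL11 88.3-fold higher in OIS than in H3.3cs1 late, the widest difference of any member in any of the 5 comparisons.

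LIF, named for its action on leukaemia cells and known as a self-renewal factor of mouse embryonic stem cells, was at 709.6 FPKM in OIS, 24.5 in H3.3cs1 late, 14.7 in H3.3cs1 early and 27.1 in growing. Only OIS stood apart, and H3.3cs1 early was the lowest. LIF rose 25.3-fold in OIS over growing (log2 difference 4.66), to rank 111 by level, against rank 2713 in growing. In H3.3cs1 late LIF differed from growing by -0.14, and in H3.3cs1 early by -0.85, both under 2-fold. IL11 was 1.49 times the level of LIF in OIS, but 0.446 times in H3.3cs1 late, 0.575 times in H3.3cs1 early and 0.796 times in growing, so LIF was the most abundant ligand in each library other than OIS.

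IL6, the founding member of the family, was at 196 FPKM in OIS, 7.54 in H3.3cs1 late, 1.36 in H3.3cs1 early and 3.26 in growing. It was the ligand with the lowest level in every library other than OIS, where CLCF1 was lower. IL6 ranked 392 by level in OIS and 9134 in growing, and its log2 difference was 5.53, rank 31 from the top. From H3.3cs1 early to late IL6 was the 1 member that rose, by 3.62-fold, where LIF (0.71), CLCF1 (0.45) and IL11 (0.34) also lay above 0 on the log2 scale without reaching 2-fold.

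The IL6 values are sums of 2 lines, and this touches the H3.3cs1 calls. The first line held 195 FPKM in OIS, 7.12 in H3.3cs1 late, 0.860 in H3.3cs1 early and 3.07 in growing. The second held 0.638 FPKM in OIS, 0.419 in H3.3cs1 late, 0.496 in H3.3cs1 early and 0.197 in growing, so it made up 0.326% of the sum in OIS and 36.6% in H3.3cs1 early. IL6 lies on the plus strand in GENCODE 29. The 20 named genes with the locus numbers nearest to the first line were all on the plus strand of chromosome 7, and the 20 nearest to the second were all on its minus strand. The library kit named in the labels' protocols is not stated to keep strand, so reads of an antisense transcript and of IL6 itself cannot be told apart. With the first line alone, IL6 in H3.3cs1 late differed from growing by 0.997 on the log2 scale, just under 2-fold, against 1.001 for the sum. In H3.3cs1 early it differed by -1.13, past 2-fold, against -0.86 for the sum.

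**Figure D2:**
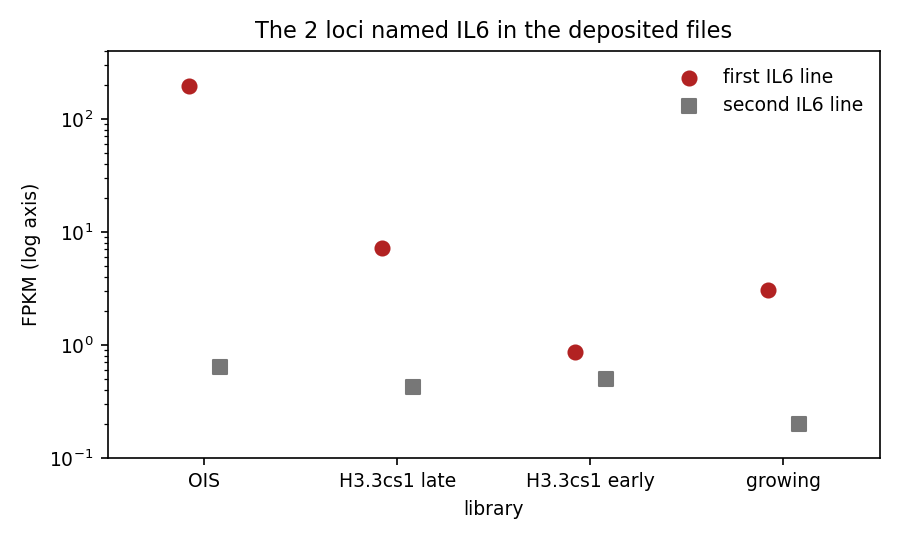
FPKM (log axis) of the 2 loci named IL6 in each of the 4 libraries. The first line runs between 195 FPKM in OIS and 0.860 in H3.3cs1 early, while the second stays between 0.197 and 0.638 FPKM.

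CLCF1, cardiotrophin-like cytokine factor, which signals through CNTFR, LIFR and gp130, was at 15.8 FPKM in OIS, 8.23 in H3.3cs1 late, 5.78 in H3.3cs1 early and 10.6 in growing. Its order of libraries was that of LIF and IL11, yet over a narrow range, and it passed 2-fold in none of the 5 comparisons. The log2 difference was 0.53 for OIS minus growing and -0.78 for H3.3cs1 early minus growing.

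The start regions of IL6 and IL11 are printed because these genes had the largest rises among the members. They are RefSeq windows of GRCh38.p14, from 250 bases before to 50 after the annotated start, at chr7:22726950-22727249 on the plus strand for IL6 and at chr19:55370414-55370713 on the minus strand for IL11. Of the 10 members, 8 have such a window, and LIF and CLCF1 have none in the table. Capitals mark matches, on either strand, to any of 5 patterns: the NF-kappaB consensus, AP-1 (TGANTCA), C/EBP (TTGCNNAA), CRE (TGACGTNA) and STAT (TTCNNNGAA). No matches overlap in the windows printed.
IL6: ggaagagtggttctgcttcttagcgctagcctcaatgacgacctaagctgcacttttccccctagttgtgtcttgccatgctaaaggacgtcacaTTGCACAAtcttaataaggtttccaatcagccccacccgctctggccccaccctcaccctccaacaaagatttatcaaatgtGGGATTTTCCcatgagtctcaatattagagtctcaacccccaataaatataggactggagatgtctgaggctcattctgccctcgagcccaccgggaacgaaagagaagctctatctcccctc
IL11: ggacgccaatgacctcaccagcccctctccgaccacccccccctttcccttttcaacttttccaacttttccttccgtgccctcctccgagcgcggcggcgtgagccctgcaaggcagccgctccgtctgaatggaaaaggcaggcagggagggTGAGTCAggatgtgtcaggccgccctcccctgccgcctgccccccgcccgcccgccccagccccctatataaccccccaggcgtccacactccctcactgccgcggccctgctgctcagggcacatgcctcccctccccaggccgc
The IL6 window holds 1 NF-kappaB match that begins 73 bases before the start and 1 C/EBP match that begins 155 bases before it. The IL11 window holds 1 AP-1 match, 96 bases before the start. Of 35116 windows of the same length, 11.3% hold the NF-kappaB pattern, 10.5% the C/EBP pattern and 7.71% the AP-1 pattern, so such matches are common and describe the letters only; the CRE and STAT patterns are in 3.01% and 7.66%. Windows of members that did not rise in OIS hold matches too: IL6R has 1 AP-1 match and IL6ST 1 NF-kappaB match, and of the 3 windows of LIFR, 2 hold a STAT match.

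Among the 4 receptors OSMR was the one that passed 2-fold in any of the 5 comparisons. OSMR, the signalling chain for oncostatin M, was at 105 FPKM in OIS, 36.3 in H3.3cs1 late, 28.5 in H3.3cs1 early and 27.7 in growing. OIS was high, and the other 3 libraries lay close together. OSMR rose 3.70-fold in OIS over growing (log2 difference 1.89) and was 2.85-fold higher in OIS than in H3.3cs1 late. It was 1.39 times the level of IL6ST, its partner chain, in OIS, against 0.622 times in H3.3cs1 late, 0.460 times in H3.3cs1 early and 0.352 times in growing. OSM, the ligand that names this receptor, was listed at 0 in OIS and in H3.3cs1 late and was at 0.020 FPKM in H3.3cs1 early and 0.038 in growing. The RefSeq window of OSMR, at chr5:38845762-38846061 on the plus strand of GRCh38.p14, is shown since it is the receptor that rose.
OSMR: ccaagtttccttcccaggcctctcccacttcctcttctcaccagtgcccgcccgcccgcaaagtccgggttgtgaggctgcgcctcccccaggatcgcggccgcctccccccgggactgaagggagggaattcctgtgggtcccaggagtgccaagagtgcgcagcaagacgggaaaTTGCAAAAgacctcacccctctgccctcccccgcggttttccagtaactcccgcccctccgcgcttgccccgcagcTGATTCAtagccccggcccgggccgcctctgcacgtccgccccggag
Capitals mark a C/EBP match that begins 73 bases before the start and an AP-1 match just after it.

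IL6ST, the shared gp130 chain, was at 76.0 FPKM in OIS, 58.3 in H3.3cs1 late, 61.8 in H3.3cs1 early and 78.6 in growing. It was the most abundant receptor in all libraries except OIS, where OSMR was higher, and its log2 difference from growing was -0.05 in OIS, -0.42 in H3.3cs1 late and -0.34 in H3.3cs1 early. IL6R, the binding chain that makes a cell respond to IL-6 directly, was low throughout, at 1.91 FPKM in OIS, 1.22 in H3.3cs1 late, 2.22 in H3.3cs1 early and 1.11 in growing. Its place among compared genes was between rank 9991 and rank 11054. IL6ST was 39.8 times the level of IL6R in OIS, 47.9 times in H3.3cs1 late, 27.8 times in H3.3cs1 early and 70.8 times in growing. LIFR, the partner chain for LIF, was at 2.51 FPKM in OIS, 2.78 in H3.3cs1 late, 3.74 in H3.3cs1 early and 2.75 in growing. For IL6R and LIFR the highest library was H3.3cs1 early, and neither passed 2-fold in any comparison. The difference of LIFR between OIS and growing was -0.10 as deposited and 0.01 after quantile normalization.

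STAT3 and SOCS3 behaved unlike each other. STAT3, the transcription factor downstream of gp130, was at 35.8 FPKM in OIS, 43.1 in H3.3cs1 late, 37.0 in H3.3cs1 early and 27.2 in growing. The other 3 libraries lay above growing, with the largest difference, 0.64 on the log2 scale or 1.56-fold, in H3.3cs1 late, and none reached 2-fold. SOCS3, the feedback inhibitor of gp130 signalling, was at 70.9 FPKM in OIS, 9.84 in H3.3cs1 late, 14.2 in H3.3cs1 early and 12.4 in growing. Only OIS was high. SOCS3 rose 5.38-fold in OIS over growing (log2 difference 2.43) and was 6.64-fold higher in OIS than in H3.3cs1 late. Neither the STAT3 window nor the 2 SOCS3 windows in RefSeq hold any of the 5 patterns.

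Counted together, 5 of 10 members rose in OIS over growing (IL6, LIF, IL11, OSMR and SOCS3) and 0 fell, where 9.13% of all compared genes rose and 8.17% fell. The median difference of the members was 1.21, against 0.03 over all genes. The members were chosen with earlier results of these data known, so these counts are a description. In H3.3cs1 late over growing 1 member rose (IL6, at the threshold as described), where 3.51% of genes rose, and 0 fell, where 5.47% fell. The median of the members was -0.06 and that of all genes -0.04. In H3.3cs1 early over growing 0 members rose, where 1.4% of genes rose, and 1 fell (IL11), where 3.96% of genes fell, with medians of -0.15 and -0.02. From H3.3cs1 early to late 1 member rose (IL6), where 5.47% of genes rose, and 0 fell, where 3.4% of genes fell. Between OIS and H3.3cs1 late, 5 members were higher in OIS, the same 5 as against growing, where 11.2% of genes were higher, and 0 were lower, where 8.51% of genes were lower. The medians of that comparison were 1.19 for the members and 0.09 for all genes.

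**Figure D3:**
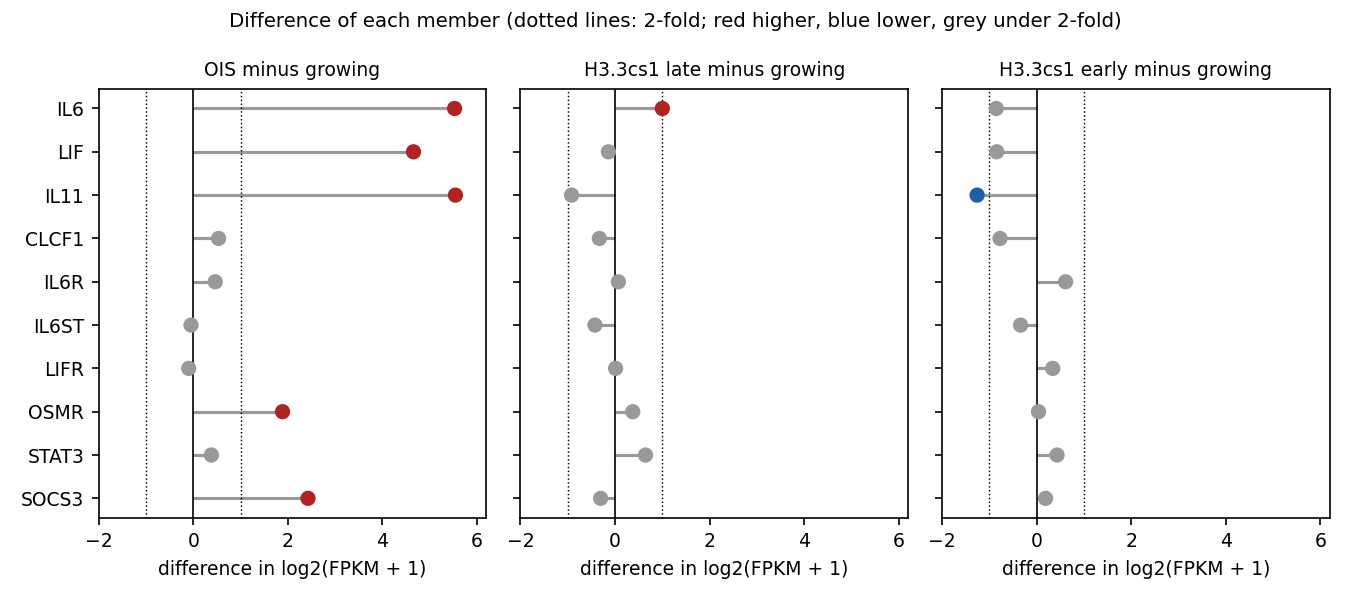
Difference in log2(FPKM + 1) of each member for OIS, H3.3cs1 late and H3.3cs1 early, each minus growing; dotted lines mark 2-fold. In OIS 5 members pass the upper line, in H3.3cs1 late IL6 sits on it at 1.001, and in H3.3cs1 early IL11 passes the lower line at -1.26.

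Other ligands and receptors of the family went their own ways. Of 7 further ligand genes 4 reached 1 FPKM. EBI3, a subunit of IL-27, was at 2.15 FPKM in OIS, 4.88 in H3.3cs1 late, 0.753 in H3.3cs1 early and 0.976 in growing, so that it rose 2.97-fold in H3.3cs1 late over growing. CTF1, cardiotrophin 1, was at 6.12 FPKM in OIS, 9.68 in H3.3cs1 late, 3.99 in H3.3cs1 early and 3.70 in growing, and rose 2.27-fold in H3.3cs1 late. Both had their highest level in H3.3cs1 late. CNTF lies on a locus joined with ZFP91, which rose 2.78-fold in OIS and cannot be read as CNTF. IL27 was listed at 0 in 3 libraries and IL31 in all 4.

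Of 4 further receptors 3 were compared, and IL27RA and IL31RA rose in OIS over growing, where 9.13% of all genes rose. IL27RA was at 6.98 FPKM in OIS, 1.44 in H3.3cs1 late, 2.15 in H3.3cs1 early and 2.75 in growing, a 2.13-fold rise in OIS over growing, with a log2 difference of 0.89, under 2-fold, after rescaling to the same sum. IL31RA, which pairs with OSMR to form the IL-31 receptor, was at 1.92 FPKM in OIS, 0.051 in H3.3cs1 late, 0.345 in H3.3cs1 early and 0.156 in growing, so it entered the comparison through OIS alone. IL11RA, the receptor for IL-11, is on a locus joined with GALT that was at 7.19 FPKM in OIS, 17.8 in H3.3cs1 late, 11.8 in H3.3cs1 early and 12.8 in growing, which cannot be read as IL11RA alone. CNTFR was at most 0.054 FPKM in any library.

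The kinases and the other STAT genes stayed within 2-fold of growing in each of the other 3 libraries. Of the Janus kinases JAK1, JAK2, JAK3 and TYK2, 3 reached 1 FPKM and 0 differed by 2-fold in any of the 5 comparisons. Over these comparisons between 1.4% and 11.2% of all genes were called higher, and between 3.4% and 8.51% lower. A count of 0 among so few genes is near those shares. JAK1 was at 50.7 FPKM in OIS, 32.9 in H3.3cs1 late, 38.9 in H3.3cs1 early and 40.1 in growing. STAT4 and STAT5A reached 2-fold in OIS over growing with a pseudocount of 0.1 and not with 1; both were at 1.39 FPKM or less in every library. STAT5A, at 1.39 FPKM in OIS and 0.190 in H3.3cs1 late, differed by 2.01-fold between these libraries, just past the threshold. STAT4 and STAT5A reached 1 FPKM in OIS only and so entered the comparisons through that library alone. ADAM10 and ADAM17, proteases that shed IL-6 receptor from the cell surface, were under 2-fold in every comparison, ADAM17 with 9.40 FPKM in OIS, 8.90 in H3.3cs1 late, 9.40 in H3.3cs1 early and 9.28 in growing.

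Of 14 other compared negative regulators, 0 rose and 1 fell in OIS over growing, counts near the 9.13% and 8.17% of all genes, with a median of 0.31 against 0.03 for all genes. The gene that fell was SOCS5, at 10.7 FPKM in OIS, 11.7 in H3.3cs1 late, 24.0 in H3.3cs1 early and 27.8 in growing, which was 2.46-fold lower in OIS and 2.27-fold lower in H3.3cs1 late than in growing. SOCS2, a regulator of growth hormone signalling, was at 10.8 FPKM in OIS, 2.21 in H3.3cs1 late, 4.54 in H3.3cs1 early and 6.73 in growing. It fell 2.41-fold in H3.3cs1 late over growing. In that comparison 0 of the 14 rose and 2 fell, SOCS5 and SOCS2, where 3.51% of all genes rose and 5.47% fell. The median was -0.16 against -0.04 for all genes. SOCS1 was at 2.48 FPKM in OIS, 3.68 in H3.3cs1 late, 3.04 in H3.3cs1 early and 3.47 in growing. PTPN11, the phosphatase SHP2 that binds gp130 at the same site as SOCS3, was at 71.6 FPKM in OIS, 34.2 in H3.3cs1 late, 42.6 in H3.3cs1 early and 38.2 in growing, 1.85-fold higher in OIS than in growing.

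Of 18 compared genes reported as STAT3 targets, 10 rose and 1 fell in OIS over growing, where 9.13% of all genes rose and 8.17% fell. The median was 1.14 against 0.03 for all genes, and 2 of the 18 reached 1 FPKM in 1 library only. FOS, an AP-1 subunit, rose 10.9-fold. It was at 16.0 FPKM in OIS, 0.473 in H3.3cs1 late, 0.662 in H3.3cs1 early and 0.557 in growing. FOS thus entered the comparison through OIS alone. HGF, a growth factor made by fibroblasts, rose 10.6-fold, VEGFA, the angiogenic factor, rose 8.32-fold, and the antiapoptotic gene MCL1 rose 8.13-fold. JUNB (6.87-fold), TIMP1 (3.93-fold), HIF1A (2.76-fold), CEBPD (2.53-fold), PIM1 (2.29-fold) and IRF1 (2.13-fold) were the others, of which PIM1 and IRF1 were under 2-fold after rescaling to the same sum. Many of these genes also answer to other signals. The list was chosen with earlier results of these data known, so its count beside the share of all genes is a description. BIRC5, the mitotic protein survivin, was the 1 that fell, to 0.704 FPKM in OIS, with 1.33 in H3.3cs1 late, 5.92 in H3.3cs1 early and 32.3 in growing. In H3.3cs1 late over growing 1 rose (MUC1, 2.09-fold) and 1 fell (BIRC5, 14.3-fold), counts near the 3.51% and 5.47% of all genes, with a median of -0.16 against -0.04 for all genes.

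Of 12 regulators of IL6 transcription and mRNA, 6 rose and 0 fell in OIS over growing. Among all genes 9.13% rose and 8.17% fell. The median was 0.90 against 0.03 for all genes. This list, too, was chosen with earlier results of these data known. HNRNPD, which encodes the mRNA decay factor AUF1, was 1.82-fold lower as deposited and past 2-fold lower after rescaling to the same sum and after quantile normalization, so that 1 fell under those settings. ZC3H12A, the RNase Regnase-1 that degrades IL6 mRNA, was at 70.1 FPKM in OIS, 3.91 in H3.3cs1 late, 2.23 in H3.3cs1 early and 2.09 in growing, a 23.0-fold rise in OIS. CEBPB, a transcription factor first found as a binder of the IL6 promoter, was at 76.1 FPKM in OIS, 18.8 in H3.3cs1 late, 21.6 in H3.3cs1 early and 14.9 in growing, a 4.86-fold rise. The locus joining NFKBIZ, a nuclear cofactor of NF-kappaB, with NXPE3 rose 6.08-fold, and ATF3 (2.81-fold), ZFP36L1 (2.45-fold) and JUN (2.12-fold) completed the list, JUN under 2-fold after rescaling to the same sum and after quantile normalization. RELA, the main activating NF-kappaB subunit, was at 52.6 FPKM in OIS, 48.5 in H3.3cs1 late, 40.5 in H3.3cs1 early and 39.6 in growing. In H3.3cs1 late over growing 0 of the 12 rose and 1 fell, HNRNPD, by 2.30-fold, where 3.51% of genes rose and 5.47% fell. Of the cytokines that induce IL6, IL1B was at 2869 FPKM in OIS, 1.22 in H3.3cs1 late, 2.50 in H3.3cs1 early and 1.74 in growing, a log2 difference of 10.03 for OIS minus growing. IL1A was at 41.0 FPKM in OIS, 0.022 in H3.3cs1 late, 0.122 in H3.3cs1 early and 0.063 in growing. It entered the comparisons through OIS alone. TNF was at 0.045 FPKM in OIS and was listed at 0 elsewhere. The receptor gene IL1R1 rose 3.44-fold in OIS, to 19.0 FPKM, against 4.81 in growing.

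**Figure D4:**
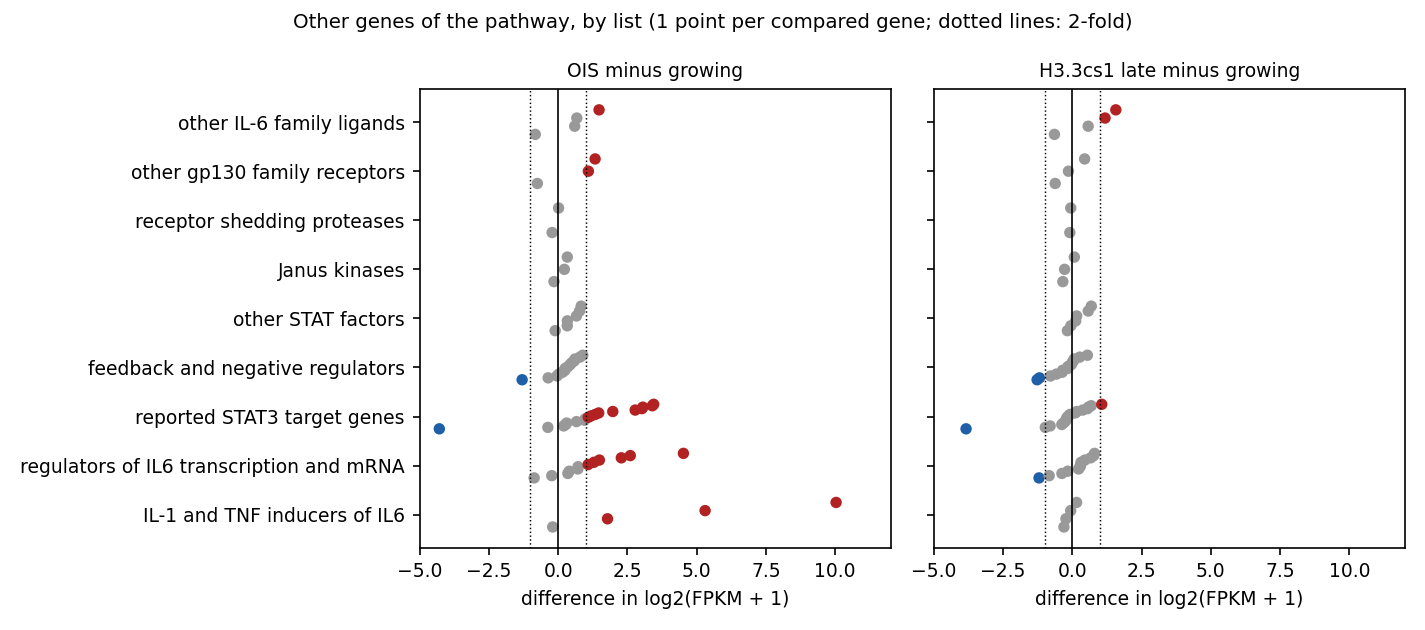
Difference in log2(FPKM + 1) of the other genes of the pathway for OIS minus growing and H3.3cs1 late minus growing, 1 point per compared gene; red and blue mark genes past 2-fold (dotted lines). Reported STAT3 targets and regulators of IL6 spread to the right in OIS, with 10 of 18 and 6 of 12 past 2-fold. The Janus kinases stay near 0 in both panels. The lists were chosen with earlier results of these data known.

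Genes with the most similar profiles over the 4 libraries were sought for IL6, LIF and STAT3. By Euclidean distance between log2(FPKM + 1) profiles, each centred on its own mean, among 9164 genes with at least 5 FPKM in a library, the nearest to IL6 were SERPINB2 (distance 0.578), a plasminogen activator inhibitor, GDF15 (0.799), a stress-induced cytokine, LIF (1.03), THBD (1.12), thrombomodulin, and CST4 (1.19), a cystatin. SERPINB2 was at 1164 FPKM in OIS, 35.4 in H3.3cs1 late, 7.46 in H3.3cs1 early and 14.6 in growing, in the same order of libraries as IL6. The nearest to LIF were INHBA (0.518), the activin A subunit, TMEM156 (0.530), CST4 (0.598), EHF (0.599), an epithelial transcription factor, and MMP12 (0.634), a matrix protease. Of these, TMEM156, CST4, EHF and MMP12, like THBD and CST4 for IL6, were under 1 FPKM in the other 3 libraries and passed the filter through OIS alone. INHBA was at 781 FPKM in OIS, 37.5 in H3.3cs1 late, 27.4 in H3.3cs1 early and 41.1 in growing. IL11 was rank 33 in distance to IL6 and rank 40 to LIF. The nearest to STAT3 were KIAA0930 (0.0213), SETD7 (0.0487), ACSF2 (0.0780), AKAP8L (0.0837) and the joined locus of MIR4680 and PDCD4 (0.0850). These distances rest on 4 libraries and are a description.

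The labelled cell type was checked against fixed markers. All 10 fibroblast markers were above 1 FPKM in every library. Their summed level was 5033 FPKM in OIS, 11472 in H3.3cs1 late, 6201 in H3.3cs1 early and 10849 in growing. In OIS over growing 6 of the 10 fell, where 8.17% of all genes fell. PDGFRA alone was higher there, at 52.3 FPKM in OIS against 27.3 in growing, 1.88-fold and short of the threshold. None of 8 leukocyte markers reached 1 FPKM: their sum was at most 0.663 FPKM, in OIS, and PTPRC, the pan-leukocyte marker, was at most 0.040 FPKM. Of 6 epithelial markers CLDN4 alone passed 1 FPKM, at 3.90 in OIS, 0.900 in H3.3cs1 late, 4.25 in H3.3cs1 early and 1.54 in growing. The 6 endothelial markers summed to 16.0 FPKM in OIS, 0.288 in H3.3cs1 late, 0.973 in H3.3cs1 early and 0.857 in growing, nearly all of it in OIS from CLDN5 (11.6 FPKM) and TIE1 (4.05), with CDH5 and KDR listed at 0 there and PECAM1 at 0.115. The endothelial sum was thus higher and most fibroblast markers were lower in OIS, where the ligands rose. The part of these markers in that result was not tested. Fibroblast markers were lower than in growing in H3.3cs1 early as well, where the ligands lay below growing. In that comparison 2 of the 10 fell, COL1A1 and DCN, where 3.96% of all genes fell. The median of the 10 was -0.75, against -0.02 for all genes.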

How the data were processed

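Poly(A) RNA libraries of 4 IMR90 cultures, made with a TruSeq v2 kit per the labels' protocols, were compared, 1 per group. The authors deposited 1 FPKM value per locus and library; per the submitters' processing notes, Cufflinks 2.1.1, TopHat2 2.0.3 and Bowtie2 were used with hg19, in roles not listed. Read counts, the use of strand and any scaling across samples were not given in the sources used here, and precision cannot be stated. In each file the header lacks a name for the locus column, so its names stand 1 column to the left of the values; samples were taken from the series record.

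Loci without a gene name (2310 of 26468, with 47.4% to 57.9% of summed FPKM) were left out. Lines of 1 symbol were summed, joined loci kept under their joined names, and genes with at least 1 FPKM in at least 1 library compared as log2(FPKM + 1), with a call at 2-fold, in 5 comparisons. No test, p-value or SD was possible with 1 library a group. Named genes were the 10 members, up to 4 genes of each of 9 pathway lists and 4 marker lists with the largest differences in a comparison, and the 5 nearest profiles of IL6, LIF and STAT3; other genes of these lists that are named, such as SOCS1, JUN, RELA and TNF, were chosen after their values were seen. Some list members are not reported by name here. Members and lists were chosen with earlier results of these data known. Promoter windows are from RefSeq (GRCh38.p14), strands from GENCODE 29. The 8 alternatives changed the pseudocount (0.1), the filter (none, or 5 FPKM), the scale (same sum, median centring, quantiles), the handling of several lines (highest) and joined loci (left out). Python 3.11.15, numpy 2.4.6, pandas 2.3.3 and matplotlib 3.10.9 were used.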

Additional observations from a re-analysis of the deposited data

How the results depend on the processing

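Under the 8 alternatives, 387 of 390 member values kept their direction where called and their side of 2-fold, and no called value changed sign; IL6R and LIFR gave no value with a filter at 5 FPKM. The 5 members that rose in OIS over growing rose under each of the 8, IL6 with log2 differences between 5.29 and 5.86, IL11 between 5.16 and 5.60, LIF between 4.31 and 4.70, SOCS3 between 2.19 and 2.51 and OSMR between 1.65 and 1.92. The exceptions were all IL6 in H3.3cs1 cells. With the highest line of each symbol, 0 members rose in H3.3cs1 late over growing and 2 fell in H3.3cs1 early over growing, as also 2 did with a pseudocount of 0.1, where IL6 differed by -1.21. The difference of STAT3 between H3.3cs1 late and early was 0.21 as deposited and -0.03 after rescaling to the same sum.

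Counts over all genes moved by more than 1.5 times with a pseudocount of 0.1, to 1523 lower in OIS (995 as reported), 743 higher in H3.3cs1 late (428), 437 higher in H3.3cs1 early (171) and 910 lower from H3.3cs1 early to late (414). Rescaling to the same sum gave 316 higher in H3.3cs1 early and 808 lower from early to late. That rescaling also turned the share of called genes that were higher to 37.7% in OIS over growing (52.8% as reported), 48.3% in H3.3cs1 early over growing (26.1%, and 38.5% with a pseudocount of 0.1), 36.4% from early to late (61.7%, and 50.6% with that pseudocount) and 41.3% in OIS over H3.3cs1 late (56.8%); the cause was not tested. Counts of the pathway lists were repeated for OIS and H3.3cs1 late, each over growing. Of 288 such counts under alternatives 13 moved by more than 1.5 times or changed to or from 0. No paired analysis was possible because each group has 1 library. With FPKM alone and 1 library a group, a difference near 2-fold in a gene of a few FPKM, such as IL6 in H3.3cs1 cells, has no check.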
